A study of Mus musculus with 48 samples.

Results

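The 36 genes described here encode the proton pump, the proteases, the membrane proteins and the lumenal hydrolases of the lysosome, with 1 transcription factor and 1 autophagy receptor that belong to the same system. They were taken by gene symbol from the 4 deposited expression tables, each of which lists 55335 gene rows, and each of the 36 symbols occurred once in every table. By role they are 5 subunits of the membrane sector (V0) and 8 subunits of the catalytic sector (V1) of the vacuolar proton pump, 2 accessory proteins of that pump, 10 cathepsins, 4 lysosomal membrane proteins, 5 glycosidases and lipid-handling proteins of the lumen, the transcription factor Tfeb and the receptor Sqstm1.

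The vacuolar ATPase (V-ATPase) spends ATP in its V1 sector to drive protons through its V0 sector, and the acid it makes in the lysosome lets cathepsins cut proteins and glycosidases cut sugar chains. Tfeb and its relatives, when they are in the nucleus, switch on many genes of the lysosome and of autophagy by binding an E-box sequence in their promoters. In bone the same pump, carried to the cell surface, is best known from the osteoclast, which acidifies the bone surface it resorbs.

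The study asked how damage to mitochondria, stress and age affect osteocytes, the cells buried in bone matrix, and 27 RNA-seq libraries in 9 groups of 3 are used here. All samples are labelled wild type and C57BL/6J. MLO-Y4, a single mouse osteocyte-like cell line, was given oligomycin A (50 µM) or the same volume of its solvent DMSO (vehicle) for 1 h, and the supernatant of each culture was then put for 2 h on normally cultured MLO-Y4 cells, called recipients below. Oligomycin A blocks the mitochondrial ATP synthase, a different enzyme from the V-ATPase. The treatment label of the vehicle libraries also names oligomycin A beside DMSO, while the protocol gives DMSO alone, and the protocol was followed here. The treatment labels give 50 mM, the concentration of the stock in the protocol. In a second experiment MLO-Y4 cells received 2 µM ADP, which signals through purinergic receptors when outside the cell, or none, for 2 h. The bone groups are cortical bone of mice whose titles give an age of 18 months, and bone fragments of mice aged 1 month that were kept for 48 h in medium that donor fragments had conditioned for 24 h. The young bone groups are titled transfer and control. Their labels do not say which of them received medium from old donors. Whether the 3 libraries of a group are separate cultures or animals is not labelled. The p-values therefore refer to the spread among these libraries, which may be technical.

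Values are FPKM, fragments scaled to transcript length and to library size, so levels of different genes can be compared per length within a library. The depth estimated from the steps between low values was 15.1 to 25.6 times 1e+06 fragments in the MLO-Y4 libraries, and no depth could be estimated for bone. Composition stood apart in some libraries: in vehicle replicate 2 genes for rRNA-like and 7S RNA held 27.2% of the FPKM total, against 0.215% to 1.95% in the other MLO-Y4 libraries, and satellite-like genes took 5.80% to 89.9% of the summed FPKM in young bone. Of 7 osteocyte markers, MLO-Y4 cells held Pdpn, Gja1 and Phex, the lowest group mean being 7.49 FPKM for Phex, while Sost was listed at 0 in every MLO-Y4 library and Dmp1 and Mepe had group means of at most 0.0146 and 0.0446 FPKM. Old bone held all 5 B-cell, all 8 neutrophil and all 6 erythroid markers, with summed levels of 101470 to 106320 FPKM for neutrophil genes and 257640 to 276800 FPKM for erythroid genes, so its values are those of a tissue of many cell types. In such bulk samples fewer cells of a type and less RNA per cell cannot be told apart.

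The first result is the level of the 36 genes in MLO-Y4 cells. Of the 36, 34 had a mean above 1 FPKM in all 6 MLO-Y4 groups. The leading member was Psap, the precursor of the saposins that help lipid hydrolases, at 234, 238 and 238 FPKM in cells without ADP and at 389, 365 and 372 FPKM in vehicle-treated cells. Lamp1, an abundant glycoprotein of the lysosomal membrane, came second in every MLO-Y4 group, with group means from 212 to 280 FPKM. In the oligomycin A experiment Sqstm1 came next, at means of 158 to 263 FPKM. Behind these genes stood the cathepsins Ctsz (means 96.3 to 115 FPKM), Ctsd (72.3 to 130 FPKM), Ctsb (78.8 to 127 FPKM) and Ctsl (50.7 to 78.8 FPKM). At the other end Ctss, a cathepsin of antigen-presenting cells, had no library above 0.142 FPKM, and Ctsf was listed at 0 in all but 2 libraries, the higher of which held 0.0120 FPKM. Tfeb itself was low, with group means from 1.34 to 1.71 FPKM.

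Among the subunits of the pump in MLO-Y4 cells, the proteolipid Atp6v0c, which forms the proton-carrying ring, and the peripheral stalk subunit Atp6v1g1 were highest, with group means of 43.2 to 58.9 FPKM and 46.5 to 63.7 FPKM. The catalytic subunit Atp6v1a reached means of up to 33.6 FPKM, with Atp6v0d1 between 30.8 and 45.1 FPKM, and Atp6v1f between 27.1 and 36.4 FPKM. Lower members of the pump were Atp6v1b2 (9.50 to 18.7 FPKM), Atp6v1c1 (10.1 to 14.8 FPKM), Atp6v1d (8.31 to 13.0 FPKM), Atp6v0a1 (7.49 to 9.94 FPKM) and Atp6v1h (3.71 to 4.52 FPKM). Atp6v0b lay between 15.1 and 28.8 FPKM, Atp6v0e between 13.9 and 15.6 FPKM and Atp6v1e1 between 14.5 and 17.0 FPKM. The 2 accessory proteins, Atp6ap1 and the renin receptor Atp6ap2, had means of 23.0 to 26.7 FPKM and 12.6 to 21.6 FPKM. In vehicle-treated cells the subunits of this 1 complex thus ranged from 3.73 FPKM for Atp6v1h to 54.9 FPKM for Atp6v0c.

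The other members in MLO-Y4 cells spanned a similar range. The glycosidase Hexa, which degrades gangliosides, had group means of 33.4 to 54.0 FPKM, the sterol-binding Npc2 41.3 to 50.0 FPKM, Gusb 8.94 to 15.8 FPKM and the sialidase Neu1 2.36 to 5.68 FPKM. In the membrane, Lamp2 had 16.0 to 25.0 FPKM, the cation channel Mcoln1 4.98 to 7.91 FPKM and the cholesterol exporter Npc1 3.32 to 6.53 FPKM. Of the remaining cathepsins, Ctsa had 10.4 to 16.6 FPKM, Ctsc 8.14 to 12.2 FPKM, Ctsh at most 5.61 FPKM and Ctso 2.31 to 5.07 FPKM. Sqstm1, the receptor p62 that carries ubiquitinated cargo into autophagosomes, was 56.7 ± 1.87 FPKM (SD, n = 3) without ADP and 158 ± 12.4 FPKM (SD, n = 3) with vehicle, which come from tables normalized separately and were not compared by a test.

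**Figure D1:**
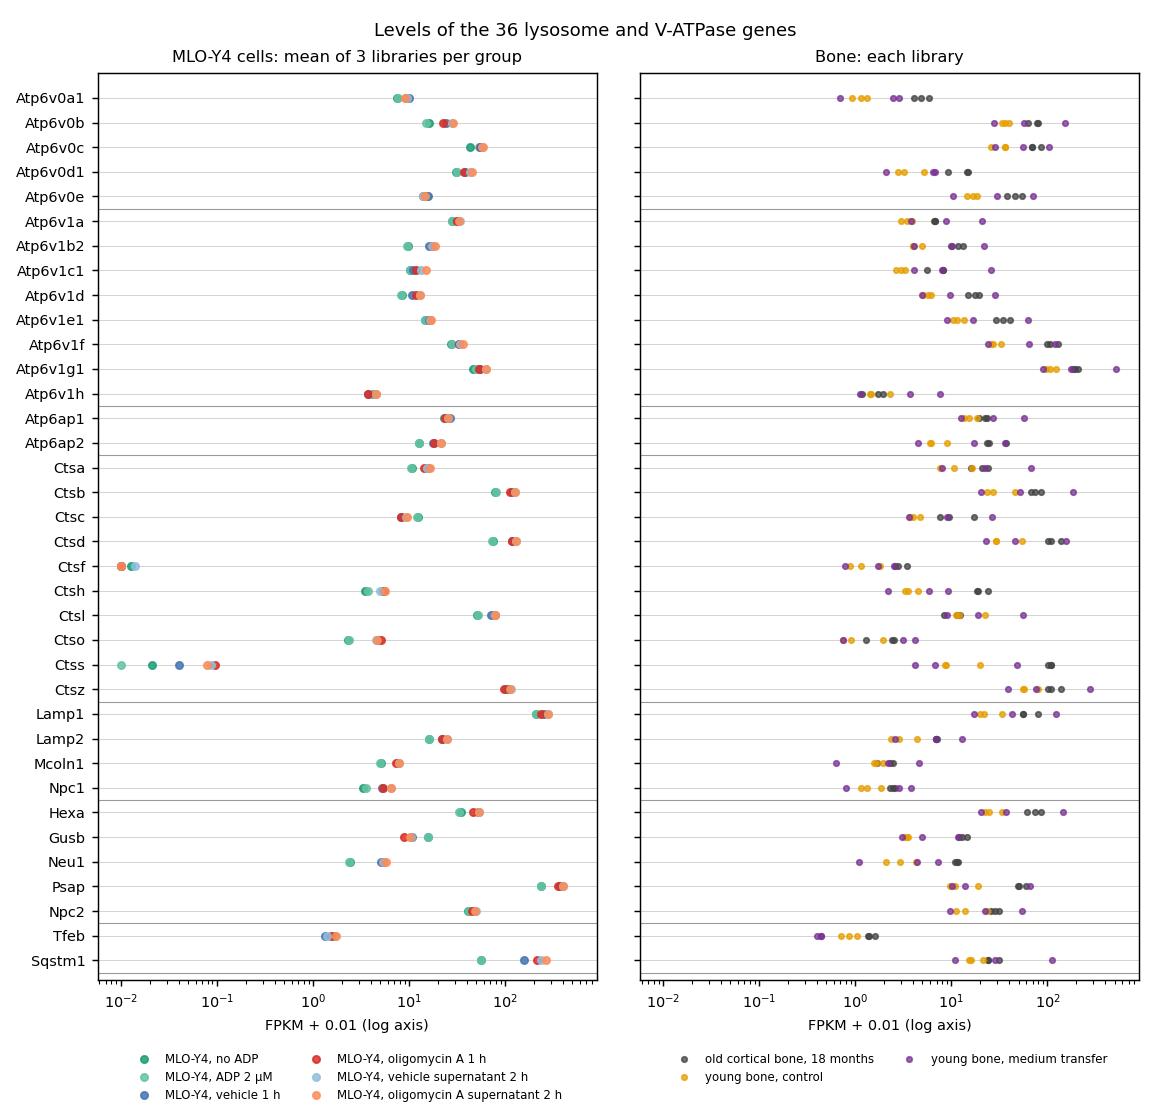
Levels of the 36 genes on a log axis of FPKM + 0.01, as means of 3 libraries in the 6 MLO-Y4 groups (left) and as single libraries in the 3 bone groups (right), with lines between the roles. Ctss and Ctsf lie near 0 in MLO-Y4 cells and between 0.777 and 110 FPKM in bone.

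Bone held another mixture of the same genes. In old cortical bone all 36 had a mean above 1 FPKM, and the leading member was Atp6v1g1 at 184, 195 and 206 FPKM, followed by Ctsz at 117 ± 19.9 FPKM and Ctsd at 116 ± 19.7 FPKM (SD, n = 3). Ctss had 107 ± 4.93 FPKM there (SD, n = 3). Markers of several cell types stood beside it in old bone. The 9 macrophage markers summed to 4377 to 5168 FPKM, the 5 B-cell markers to 127 to 147 FPKM and the 8 neutrophil markers to 101470 to 106320 FPKM. Over the MLO-Y4 libraries these sums were 19.2 to 39.7, 0 to 0.302 and 3.78 to 9.32 FPKM in that order. These sums come from tables normalized separately and were not compared by a test. In every MLO-Y4 library 5 of the 9 macrophage markers were above 0, while Adgre1, C1qa, C1qb and C1qc were listed at 0. The part of any of these cell types in the Ctss level was not tested. Psap (53.1 ± 5.72 FPKM) and Lamp1 (63.9 ± 13.9 FPKM, both SD, n = 3) were no longer at the top.

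Ratios within a library need no scaling between tables, but they are given as descriptions and were not compared by a test. Atp6v1g1 was 1.64 to 2.13 times Atp6v1a in the 18 MLO-Y4 libraries, 27.2 to 31.2 times in old bone and 20.0 to 34.9 times in young bone. Atp6v1f was 0.935 to 1.14 times Atp6v1a in MLO-Y4 cells and 14.7 to 19.2 times in old bone. Psap was 2.26 to 3.69 times Ctsz in MLO-Y4 cells and 0.427 to 0.482 times Ctsz in old bone. Atp6v0b was 0.441 to 0.693 times Atp6v0d1 in MLO-Y4 cells. It was 4.33 to 8.4 times in old bone and 7.76 to 22.6 times in young bone. The ranges of cell line and bone did not overlap for these ratios. How many other gene pairs differ in this way was not counted. Lamp1 over Lamp2 was 10.4 to 13.5 in MLO-Y4 cells. It overlapped with old bone, at 7.82 to 11.5, but not with young bone, at 6.15 to 9.52. Atp6v1g1 and Atp6v1f have short transcripts, 1135 and 1063 bases of annotated exon against 6044 for Atp6v1a. Psap has 2744 bases against 1441 for Ctsz, and Atp6v0b has 2051 against 1793 for Atp6v0d1. The part of transcript length in these ratios was not tested. Tcirg1 and Atp6v0d2, the forms of V0 subunits typical of the osteoclast, are given as levels only. Atp6v0d2 had 6.57 ± 0.552 FPKM in old bone and at most 0.574 FPKM in any MLO-Y4 library. Tcirg1 had 11.2 ± 1.48 FPKM in old bone and 10.5 ± 0.210 FPKM in MLO-Y4 cells without ADP (SD, n = 3). These levels come from tables normalized separately and were not compared by a test. The summed FPKM of a library was 816890 to 839628 in old bone and 265160 to 352370 in MLO-Y4 cells.

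The E-box that Tfeb binds was looked for in the promoters because the 36 genes include Tfeb and its known targets. RefSeq promoter windows on build GRCm38.p6, each 300 bases long from 250 bases before to 50 bases after the annotated start, were found for 29 of the 36 genes. The motif TCACGTGA, the core of that element, reads the same on both strands and occurred in the windows of 6 of the 29 (20.7%). Over the whole table it occurred for 304 of 27025 symbols (1.12%), or in 320 of 32851 windows (0.974%). The shorter CACGTG, which lies inside it, occurred in 10 of the 29 (34.5%) and in 8.09% of all symbols: the same 6 and Atp6v0b, Ctsf, Ctsl and Lamp1. The 6 genes with the longer motif are shown with 11 bases on each side, 5′ to 3′ on the strand of the gene, with the motif in capitals.
Atp6v0d1, chr8:105566050-105566079, minus strand: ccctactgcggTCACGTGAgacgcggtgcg
Atp6v0e, chr17:26676387-26676416, plus strand: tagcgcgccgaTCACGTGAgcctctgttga
Atp6v1a, chr16:44139373-44139402, minus strand: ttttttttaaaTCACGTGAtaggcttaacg
Ctsa, chr2:164833749-164833778, plus strand: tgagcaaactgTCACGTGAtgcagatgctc
Ctsa, chr2:164833766-164833795, plus strand: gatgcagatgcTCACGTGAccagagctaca
Ctsd, chr7:142387908-142387937, minus strand: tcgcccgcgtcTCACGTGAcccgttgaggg
Mcoln1, chr8:3500462-3500491, plus strand: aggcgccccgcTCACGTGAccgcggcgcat
The 2 stretches of Ctsa overlap and come from 1 window. A match is a run of letters and not a measured binding site. Since the 36 genes include known targets of Tfeb, the higher share among them is a description and not a test.

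Direct treatment with oligomycin A moved none of the members past the test. All tests are limma on log2(FPKM + 1) over every gene with a mean of at least 1 FPKM, called at a Benjamini-Hochberg adjusted p below 0.05, and fold changes are on that scale, which understates changes of low genes. Ctsf and Ctss fell below that filter, and 0 of the 34 tested members were called, where 5.34% of all 11902 genes were (442 higher and 194 lower). The median log2 fold change was -0.01 for the members, with 16 above and 18 below 0, and 0.00 for all genes. Without vehicle replicate 2 it was -0.06 for the members, with 13 above and 21 below 0, and -0.05 for all genes. With all libraries in the fit, 6 members had an unadjusted p below 0.05, beside 2641 of all 11902 genes. The mean was lower under oligomycin A for 5 of these 6 members. The 95% intervals of 33 of the 34 lay within a 1.5-fold change in either direction, the exception being Sqstm1.

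Sqstm1 was the member with the largest difference. It was 171, 147 and 156 FPKM with vehicle and 210, 208 and 222 FPKM with oligomycin A. The libraries did not overlap, and the log2 fold change was 0.43 ± 0.19 (SE), with a limma adjusted p of 0.21. The recipient libraries of Sqstm1 spread from 192 to 319 FPKM, and the fit takes 1 variance from all 4 groups. With vehicle and oligomycin A libraries fitted alone, the limma adjusted p was 0.0145. Sqstm1 lies over the gene Mrnip on the other strand, and since strand use in counting is not given, the 2 cannot be separated with certainty.

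Lower under oligomycin A in all 3 libraries were 9 of 34 members, Psap, Atp6v0e, Ctsz, Ctsa, Npc2, Ctsb, Hexa, Gusb and Lamp1, where 13.1% of all genes had libraries that did not overlap in this direction. Ctsz had 107, 105 and 107 FPKM with vehicle and 94.7, 95.6 and 98.5 FPKM with oligomycin A (log2 fold change -0.15 ± 0.05 SE, limma adjusted p = 0.10). Lamp1 had 267, 239 and 260 FPKM against 232, 234 and 236 FPKM (-0.12 ± 0.05 SE, limma adjusted p = 0.17). In both genes the highest library with oligomycin A was below the lowest with vehicle. Both passed under quantile normalization (limma adjusted p = 0.0424 for Ctsz and 0.0271 for Lamp1), and Lamp1 passed without vehicle replicate 2 (0.0416). With all libraries rescaled to one total Ctsz was at 0.01 and Lamp1 at 0.03, while the median over all genes went to 0.13. Vehicle replicate 2, with its rRNA-like share, is the library that this rescaling changes most.

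In the other direction 4 members did not overlap, Atp6v1b2, Atp6v1c1, Atp6v1d and Sqstm1, beside 16.8% of all genes. Of the other members tracked in every comparison, limma called none: Ctsb was at -0.10 (adjusted p = 0.23), Ctsl 0.12 (0.37), Mcoln1 -0.08 (0.58), Tfeb 0.12 (0.65), Atp6v0d1 -0.03 (0.75), Atp6v1a 0.01 (0.93), Atp6v0c 0.03 (0.95) and Ctsd -0.01 (0.95). Gusb, which cuts glucuronic acid from sugar chains, had -0.24 (adjusted p = 0.14) and Hexa -0.15 (0.16). The 6 genes with the TCACGTGA motif lay between -0.15 and 0.01, with a median of -0.05, beside 0.01 for the other 21 tested members with a promoter window. In the comparisons below these 2 medians were 0.03 and 0.01 for recipients and 0.09 and 0.03 for the difference of responses. They were 0.07 and 0.08 for the 2 control groups, -0.03 and 0.01 under ADP, and 0.67 and 0.76 in young bone. The part of the motif in these values was not tested.

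**Figure D2:**
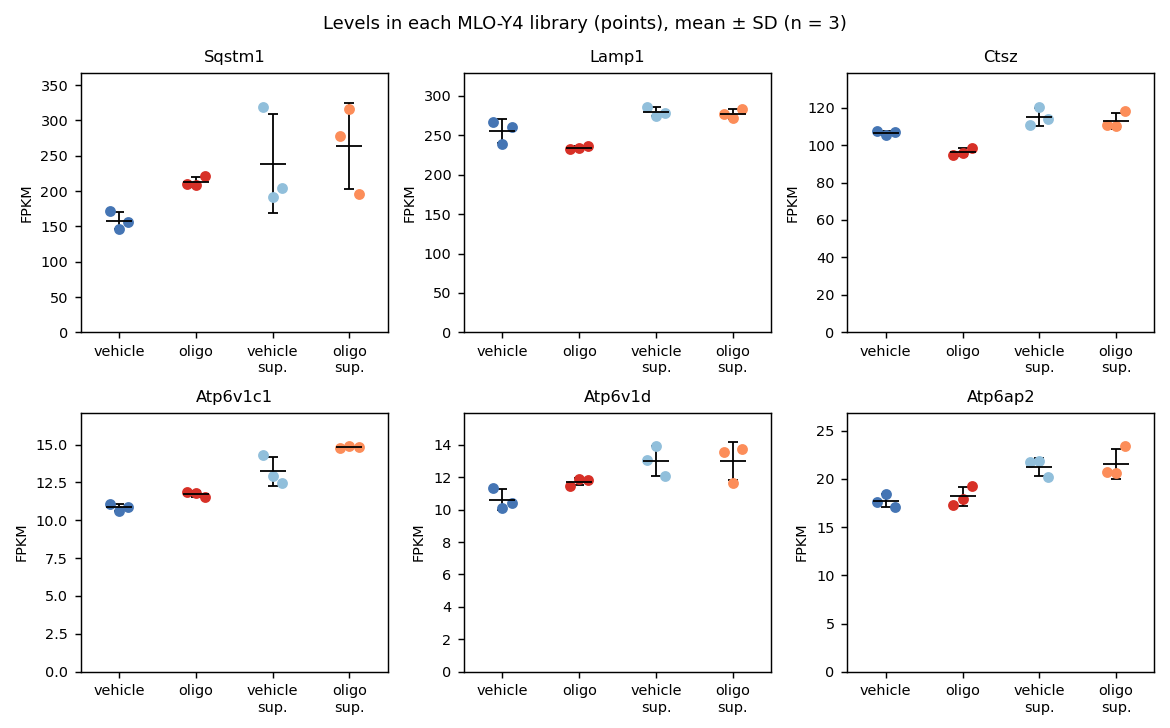
FPKM of 6 members in each of the 12 libraries of the oligomycin A experiment (points, 3 per group), with the mean and SD of the group, on axes that start at 0. Sqstm1 is between 147 and 171 FPKM with vehicle and spreads from 192 to 319 FPKM among recipients of vehicle supernatant.

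Among 117 other genes of the lysosome and autophagy, kept in 6 lists, 103 were tested and 6 were called under oligomycin A, 4 higher and 2 lower, a share near that of all genes. Each list held 1 of them. Cln3, a lysosomal membrane protein mutated in juvenile Batten disease, rose: it was 2.30, 1.99 and 2.63 FPKM with vehicle and 4.14, 4.48 and 4.20 FPKM with oligomycin A (log2 fold change 0.68 ± 0.11 SE, limma adjusted p = 0.0064), the call among 18 genes of the membrane and transport list. Mitf, a relative of Tfeb, was 10.2 ± 0.781 FPKM with vehicle and 13.6 ± 0.171 FPKM with oligomycin A, without overlap (SD, n = 3, log2 fold change 0.39, limma adjusted p = 0.0054), the call among 17 genes of MiT/TFE factors and lysosomal mTORC1 control. Rnasek, a protein found with the V-ATPase and 1 of 7 tested genes of the other pump subunits, fell from 19.9, 16.5 and 22.5 FPKM to 7.42, 6.48 and 7.60 FPKM (-1.33 ± 0.15 SE, limma adjusted p = 0.00034).

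In this comparison Cln3 and Rnasek passed under every alternative that tested them. GENCODE marks Rnasek as an overlapping locus. The other calls were the phospholipase Pla2g15, higher by 0.41 among 29 hydrolases and activators, the cargo receptor Nbr1, higher by 0.19 among 24 autophagy genes, and the mannose 6-phosphate receptor M6pr, lower at -0.23 among 8 genes of tagging and sorting. With single libraries left out, Pla2g15 lost its call without vehicle replicate 1 or 2 or any oligomycin A replicate, M6pr without vehicle replicate 1 or 3 or any oligomycin A replicate, and Nbr1 without vehicle replicate 3 or any oligomycin A replicate, with limma adjusted p up to 0.104, 0.107 and 0.105. With all libraries at one total Mitf lost its call (limma adjusted p = 0.0563), as did Pla2g15 (0.064), Nbr1 (0.169) and M6pr (0.755).

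The supernatant of oligomycin A cultures, set against vehicle supernatant, moved none of the members past the test in recipient cells. Of 34, 0 were called, beside 0.386% of all 11902 genes, and 2 had an unadjusted p below 0.05, beside 962 of all genes. The median was 0.01 for the members and 0.00 for all genes. All 34 intervals lay within 1.5-fold in either direction. The smallest p belonged to Atp6v1c1, the V1 subunit that links the pump's stalks and leaves it when the pump comes apart. Atp6v1c1 was 14.3, 12.9 and 12.5 FPKM after vehicle supernatant and 14.8, 14.9 and 14.8 FPKM after oligomycin A supernatant, without overlap (log2 fold change 0.16 ± 0.05 SE, limma adjusted p = 0.40).

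Atp6v1b2, the nucleotide-binding partner of Atp6v1a, followed with 0.12 (limma adjusted p = 0.60), then Ctsh 0.16 (0.78), Ctsa 0.09 (0.80) and Atp6v0d1 0.06 (0.87). Atp6v1b2, Ctsa and Atp6v1c1 were the 3 of 34 members with higher libraries without overlap, where 6.65% of all genes were. No member had lower libraries without overlap, beside 6.49% of all genes. Sqstm1 had 319, 192 and 204 FPKM after vehicle supernatant and 277, 316 and 196 FPKM after oligomycin A supernatant, so that 1 or 2 libraries of each group were high and the groups overlapped (0.15, limma adjusted p = 0.95). Of the tracked members, Tfeb was at 0.15 (0.91), Atp6v0c 0.03 (0.99), Lamp1 -0.01 (0.99), Atp6v1a -0.03 (0.98), and Ctsb, Ctsd, Ctsl and Mcoln1 at 0.01 or less in size. Of the 103 tested genes of the 6 lists 0 were called, with the smallest limma adjusted p at 0.24.

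The difference between the 2 responses, recipient minus direct, was tested as an interaction in the same limma fit. It called 0 of 34 members and 0.445% of all genes. The unadjusted p was below 0.05 for 1276 of all genes and for 1 member. That member was Ctsa, also called protective protein, at 0.21 ± 0.08 (SE, limma adjusted p = 0.37). Ctsa was lower with oligomycin A than with vehicle (14.4 ± 0.151 against 15.8 ± 1.29 FPKM) and higher in recipients of its supernatant (16.6 ± 0.0861 against 15.5 ± 0.497 FPKM, SD, n = 3). Hexa (0.16), Psap (0.12), Ctsz (0.12) and Lamp1 (0.11) followed, with limma adjusted p of 0.54 to 0.61. The tracked members had Ctsb 0.10, Atp6v0d1 0.10, Ctsl -0.11, Sqstm1 -0.28, Mcoln1 0.08, Atp6v1a -0.04, Tfeb 0.03, Ctsd 0.00 and Atp6v0c 0.00, with limma adjusted p of 0.63 to 1.00. Of the list genes Rnasek alone was called, at 1.65 ± 0.21 (SE, limma adjusted p = 0.0033): after the supernatants it was 12.4, 10.1 and 9.54 FPKM with vehicle and 15.7, 14.5 and 10.7 FPKM with oligomycin A, groups that overlapped.

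Recipients of vehicle supernatant and vehicle-treated cells were compared as the 2 control groups of the experiment. They differ in time after the change of medium (2 h and 1 h) and in the medium itself (conditioned and fresh), which cannot be told apart, and each serves as the control of another comparison above. Here 3 of 34 members were higher and none lower. That is 8.82% of the tested members, close to the 9.49% of all genes that were higher, and 5.18% of all genes were lower. The median log2 fold change was 0.09 for the members, with 27 above 0, and 0.03 for all genes, of which 56.5% were above 0. Without vehicle replicate 2 it was 0.06 for the members, with 23 above and 11 below 0, and -0.01 for all genes, of which 47.9% were above 0.

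The 3 called members belong to the pump, 2 to V1 and 1 to its accessory proteins. Atp6v1c1 was 11.1, 10.6 and 10.9 FPKM in vehicle-treated cells and 14.3, 12.9 and 12.5 FPKM in recipients (log2 fold change 0.26 ± 0.05 SE, limma adjusted p = 0.0093). Atp6v1d, a subunit of the rotating central stalk, was 11.3, 10.1 and 10.4 FPKM and 13.1, 13.9 and 12.1 FPKM (0.27 ± 0.07 SE, limma adjusted p = 0.031). Atp6ap2, which helps to assemble the pump, was 17.6, 18.5 and 17.1 FPKM and 21.7, 21.9 and 20.2 FPKM (0.25 ± 0.06 SE, limma adjusted p = 0.025). In each of these 3 genes every recipient library was above every vehicle-treated library.

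Atp6v1c1 kept its call with every single library left out. Atp6v1d lost it without vehicle replicate 2 or 3 or recipient replicate 1 or 2 (limma adjusted p up to 0.0976), and Atp6ap2 without vehicle replicate 1 or 3 or recipient replicate 1 or 2 (up to 0.0805). All 3 lost their calls when only the 2 groups were fitted (0.066, 0.0757 and 0.0594 in that order) and when all libraries were rescaled to one total (0.0819, 0.0957 and 0.0632), though their fold changes were then larger. Under the replicate number as a block Atp6v1d missed the threshold (limma adjusted p = 0.0518), as it did without a filter on low values (0.0591). Atp6ap2 missed it under median-of-ratios scaling (0.0556) and quantile normalization (0.0598).

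Other members of this comparison did not pass. All 8 V1 subunits were above 0, from 0.02 to 0.27, as were the 4 membrane proteins, from 0.04 to 0.28, while Atp6v0e had the lowest value of the 34 at -0.16. Sqstm1 had the largest difference of the members and was higher in each recipient library than in any vehicle-treated one, at 0.55 ± 0.19 (SE, limma adjusted p = 0.076). Lamp2 (0.16, adjusted p = 0.061), Atp6v0d1 (0.15, 0.064), Atp6v1h (0.21, 0.074), Ctsd (0.14, 0.087) and Lamp1 (0.13, 0.091) were next by limma. Ctsd passed without recipient replicate 3 (limma adjusted p = 0.0434). Lamp2 passed under median-of-ratios scaling (0.0265) and Lamp1 under quantile normalization (0.0264), and both under a scaling added after the data were seen, which leaves satellite-like and rRNA-like genes out of the total (0.0323 and 0.0376). The remaining tracked members had Ctsb 0.10 (0.18), Atp6v1a 0.11 (0.24), Ctsl 0.12 (0.28), Mcoln1 0.04 (0.78), Atp6v0c 0.09 (0.83) and Tfeb 0.04 (0.87). Counting libraries alone, 15 of 34 members were higher without overlap and 0 lower, beside 21.6% and 12.6% of all genes.

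**Figure D3:**
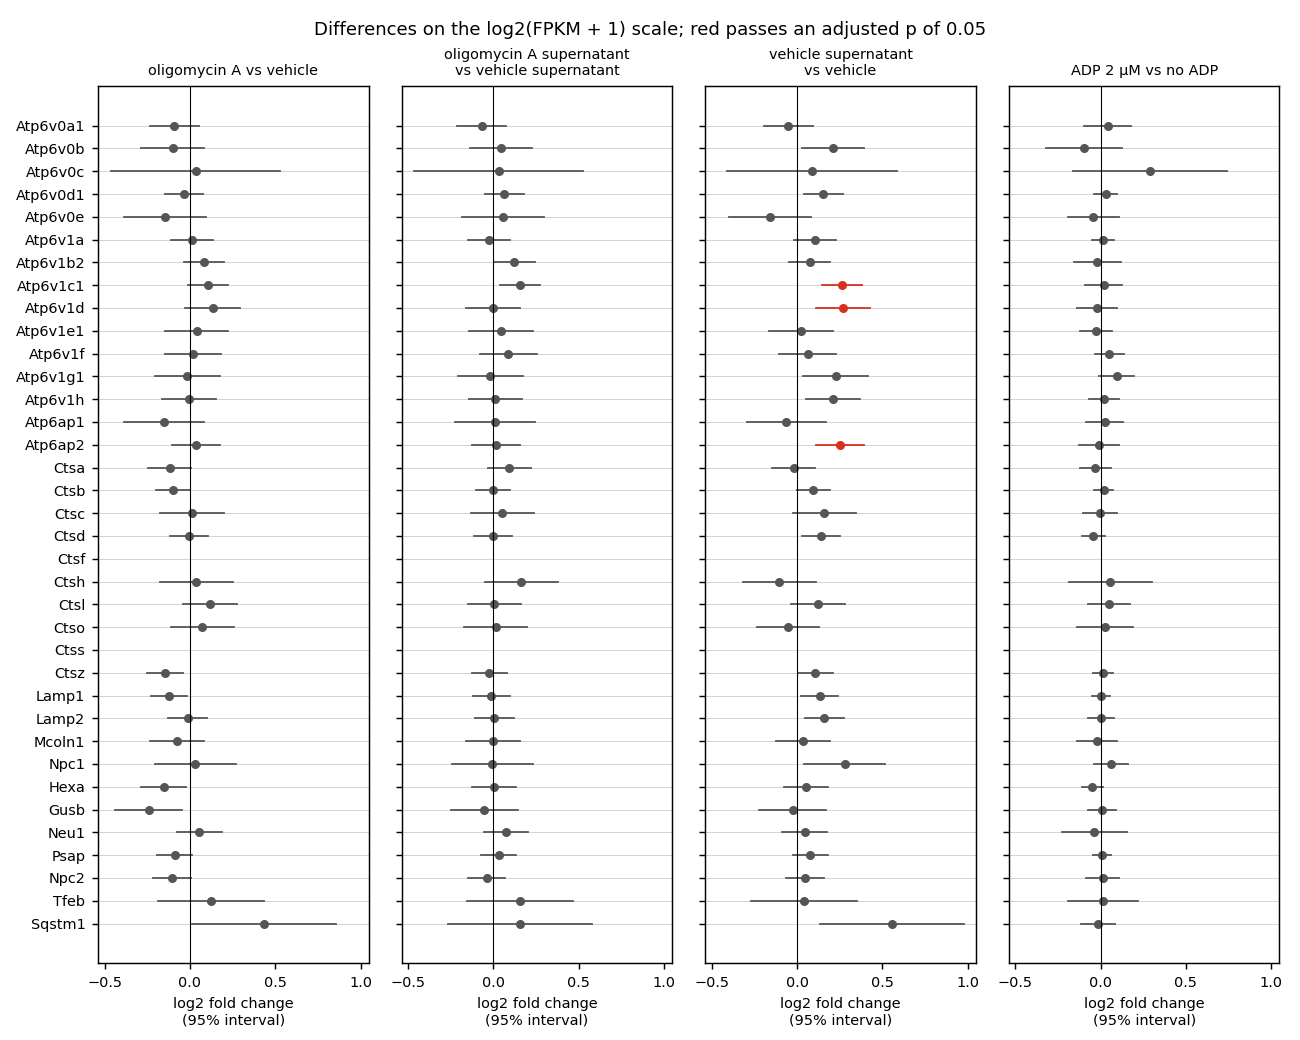
Log2 fold changes of the tested members in 4 comparisons of MLO-Y4 cells, with 95% intervals from limma, points that passed in red. The 3 red points, Atp6v1c1, Atp6v1d and Atp6ap2, are in the comparison of the 2 control groups, and Sqstm1 and Atp6v0c have the widest intervals.

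In the 6 lists 16 of 103 genes were called between the 2 control groups, 8 in each direction, where 9.49% of all genes were higher and 5.18% lower. In the autophagy list 5 of 24 were lower and none higher: Ulk1, the kinase that starts autophagosome formation (-0.56, limma adjusted p = 0.00082), Atg9a (-0.36, 0.0087), Calcoco1 (-0.31, 0.017), Nbr1 (-0.15, 0.042) and Atg14 (-0.28, 0.048), the last of these outside the naming rule and named after its value was seen. Ulk1 was 15.3, 13.4 and 14.9 FPKM in vehicle-treated cells and 8.72, 10.0 and 9.97 FPKM in recipients. Ulk1 and Atg9a lost their calls only with all libraries at one total (limma adjusted p = 0.0736 and 0.263). Calcoco1 lost its call at one total (0.383), without vehicle replicate 1 (0.0564) or recipient replicate 3 (0.0662). Nbr1 lost it with any library but vehicle replicate 2 left out (limma adjusted p up to 0.126), with the 2 groups alone (0.16), under the replicate block (0.0701) and at one total, where it stood at -0.03 (0.908). Calcoco1 also lost its call with the 2 groups alone (limma adjusted p = 0.0525).

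The hydrolase list had 4 higher and 1 lower of 29, beside the same 9.49% and 5.18% of all genes, led by Ctsk, the collagen-cutting cathepsin of osteoclasts, at 5.79, 6.14 and 6.37 FPKM in vehicle-treated cells and 11.5, 11.7 and 8.87 FPKM in recipients (0.71, limma adjusted p = 0.0012), a call kept under every alternative run. The osteoclast markers, a list that includes Ctsk itself, summed to 26.5 to 29.6 FPKM in vehicle-treated cells and 31.0 to 35.2 FPKM in recipients. Their sum is thus not separate from the Ctsk values. Of the 9 markers 5 to 7 were above 0, and Acp5, Dcstamp, Calcr and Ocstamp had means at or near 0. Pla2g15 was higher by 0.43 (limma adjusted p = 0.014), Sgsh by 0.25 (0.038) and the sphingomyelinase Smpd1 was lower at -0.24 (0.024). The chloride exchanger Clcn7 (0.31, 0.021) and Lmbrd1 (0.24, 0.043) were higher in the membrane and transport list, Gnptg (0.22, 0.025) in tagging and sorting and Rragc (0.29, 0.038) in mTORC1 control, where Fnip2 was lower (-0.25, 0.039). Rnasek was lower here too (-0.82, limma adjusted p = 0.0049), but not at one total (0.0585).

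Calls near the threshold were lost with a library left out or under another fit. With all libraries at one total 7 genes lost their calls: Smpd1 (-0.13, limma adjusted p = 0.57), Fnip2 (-0.12, 0.616), Sgsh (0.117), Clcn7 (0.111), Lmbrd1 (0.122), Gnptg (0.114) and Rragc (0.124), the last 5 with larger fold changes, from 0.36 to 0.45. With the 2 groups alone these 7 lost them too (limma adjusted p from 0.0774 to 0.123), as did Pla2g15 (0.0569). With single libraries left out Sgsh stayed between 0.21 and 0.32, Clcn7 between 0.22 and 0.36, Rragc between 0.20 and 0.34 and Smpd1 between -0.27 and -0.19. Calls were lost without vehicle replicate 1 for Smpd1, Sgsh, Lmbrd1, Gnptg and Fnip2, without vehicle replicate 2 for Sgsh, Lmbrd1, Gnptg and Rragc, and without vehicle replicate 3 for Smpd1, Rragc and Fnip2. They were lost without recipient replicate 1 for Smpd1, Clcn7, Lmbrd1, Gnptg, Rragc and Fnip2, without recipient replicate 2 for Sgsh and Rragc, and without recipient replicate 3 for Sgsh, Clcn7, Lmbrd1, Gnptg, Rragc and Fnip2. The highest limma adjusted p reached was 0.125 for Sgsh, 0.0873 for Smpd1, 0.0734 for Clcn7, 0.144 for Lmbrd1, 0.0875 for Gnptg, 0.134 for Rragc and 0.139 for Fnip2.

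ADP at 2 µM for 2 h moved none of the members past the test. Of 34, 0 were called, beside 0.0603% of all 11604 genes, 0 had an unadjusted p below 0.05 (678 of all genes did), and the members' median was 0.01 beside 0.00 for all genes. Their summed level was 1245 to 1269 FPKM without ADP and 1264 to 1280 FPKM with it. For 33 of 34 the 95% interval lay within 1.5-fold, and for Lamp1, with 215, 209 and 211 FPKM without and 213, 211 and 211 FPKM with ADP, the difference was 0.00 ± 0.02 (SE, limma adjusted p = 1.00).

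The smallest p belonged to Atp6v1g1 at 0.09 ± 0.04 (SE, limma adjusted p = 0.84), with 45.3, 48.2 and 45.9 FPKM without and 48.1, 52.2 and 48.8 FPKM with ADP, which overlapped. The exception to the narrow intervals was Atp6v0c, which varied within groups: 36.2, 43.4 and 50.0 FPKM without ADP and 40.3, 58.3 and 61.7 FPKM with it (0.29 ± 0.19 SE, limma adjusted p = 0.89). Over the 6 MLO-Y4 groups its root mean square coefficient of variation was 21.8%, the highest of the tested members, beside a median of 5.77%. Hexa (-0.05), Ctsd (-0.04) and Atp6v1f (0.05) followed, with limma adjusted p of 0.85 to 0.89. The other tracked members were within 0.05 of 0: Atp6v0d1 0.03, Ctsl 0.05, Mcoln1 -0.02, Ctsb 0.02, Atp6v1a 0.01, Sqstm1 -0.01 and Tfeb 0.01. Npc1 and Atp6v1h were higher and Hexa lower without overlap, beside 5.33% and 5.27% of all genes in these directions. Of 103 list genes 1 was called: Slc36a1, an amino acid exporter of the lysosome, was 0.772, 0.776 and 0.836 FPKM without and 2.53, 2.29 and 2.20 FPKM with ADP (0.90 ± 0.06 SE, limma adjusted p = 0.018). It was under 1 FPKM in all libraries without ADP and passed the filter through the ADP libraries alone, and without the filter it was not called (limma adjusted p = 0.0937). Its call was also lost without any one of the libraries without ADP or ADP replicate 2 (limma adjusted p up to 0.081) and under the replicate block (0.272).

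In young bone fragments all 35 tested members had the higher mean after medium transfer, and none was called, beside 0.0243% of all 16438 genes. The median log2 fold change was 0.75 for the members and 0.45 for all genes, of which 85.1% were above 0. The members' values differed widely within the transfer group: summed over the 36 genes, the level was 901, 2608 and 416 FPKM after transfer and 510, 500 and 715 FPKM in controls. Transfer replicate 1 held 27280 genes at 1 FPKM or more, against 9306 to 15513 in the other young bone libraries. It was the highest of the 6 libraries for 7479 of all 16438 genes but for 0 of the members. Transfer replicate 2 was the highest for 35 of 36 members, beside 46.8% of all genes, and transfer replicate 3 the lowest for 27 of 36, beside 41.2%.

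The share of satellite-like genes moved with this order. After transfer it was 66.1%, 5.80% and 89.9%, and the controls had 86.1%, 88.6% and 81.7%. Without transfer replicate 2 the members' median was 0.12, with 25 above and 10 below 0, beside 0.29 for all genes. Without transfer replicate 3 it was 1.30, with all 35 above 0, 15 at an unadjusted p below 0.05 and 0 called by limma, beside 0.79 for all genes, of which 90.5% were above 0. Another scaling, added once the data had been seen, leaves satellite-like genes and those for rRNA-like and 7S RNA out of each library's total. Under it the median was 0.14 with 23 above and 12 below 0, beside -0.02 for all genes, and under quantile normalization 0.11. The macrophage markers summed to 53.2 to 635 FPKM after transfer and 119 to 155 FPKM in controls, all 9 above 0 in each library. The osteoclast markers summed to 810 to 4998 FPKM and 702 to 875 FPKM, also all 9 above 0. Their part in the members' values was not tested.

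Atp6v1c1 was the single tested member with an unadjusted p below 0.05, beside 368 of all 16438 genes. It was also the single tested member without overlap, where 3.49% of all genes were higher without overlap and 0.596% lower. It was 7.93, 25.9 and 4.08 FPKM after transfer and 2.66, 3.26 and 3.00 FPKM in controls (1.43 ± 0.72 SE, limma adjusted p = 0.90). After the rescaling it stood at 33.7, 60.8 and 40.3 against 19.5, 29.1 and 17.7 per 1e+06 of the remaining FPKM, still without overlap. On that scale 5 of 35 members were higher without overlap, beside 3.47% of 16389 genes: Atp6v1c1, Atp6v1a (37.3, 48.6 and 37.0 against 22.1, 30.8 and 23.1), Atp6v1b2 (43.6, 51.5 and 40.4 against 29.0, 35.7 and 29.2), Atp6v1f (276, 284 and 239 against 201, 231 and 193) and Ctsc (38.4, 61.5 and 35.4 against at most 33.2). Ctsh (24.6, 21.7 and 21.5 against 25.7, 29.0 and 26.4) and Neu1 (18.5, 17.1 and 10.8 against 21.2, 18.6 and 25.4) were lower without overlap, beside 2.95% of the genes. As deposited, Atp6v1a (8.78, 20.7 and 3.74 against 3.01, 3.45 and 3.91 FPKM, 1.17 ± 0.73 SE), Ctsc (1.07), Atp6v1b2 (1.05) and Atp6ap2 (0.97) came next, each with a limma adjusted p of 0.90. By role the median was 0.95 for the 8 V1 subunits, 0.74 for the 5 V0 subunits and 0.58 for the 10 cathepsins, of which Ctss was lowest at 0.01. On the deposited scale the 95% interval of no tested member lay within 1.5-fold in either direction. A difference of that size could therefore not be excluded for any of them.

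The tracked members in young bone had Lamp1 0.87, Ctsb 0.91, Sqstm1 0.91, Atp6v0c 0.76, Ctsd 0.59, Ctsl 0.53, Atp6v0d1 0.28 and Mcoln1 0.18, all with a limma adjusted p of 0.90 to 0.93. Tfeb, at a mean under 1 FPKM, was not tested and ran the other way: it was 0.428, 0.389 and 0.430 FPKM after transfer and 1.03, 0.697 and 0.844 FPKM in controls. The groups did not overlap, and after the rescaling they stood at 1.82, 0.914 and 4.24 against 7.59, 6.22 and 4.99. The shares of all genes without overlap given above cover only genes that passed the filter. How often genes as low as Tfeb do not overlap was not counted, so its values are given as levels only. Of the 6 lists 0 of 91 tested genes were called, with 90 above 0, beside 0.0243% and 85.1% of all genes. The satellite-like shares given above belong to the same libraries, and their part in these values was not tested.

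**Figure D4:**
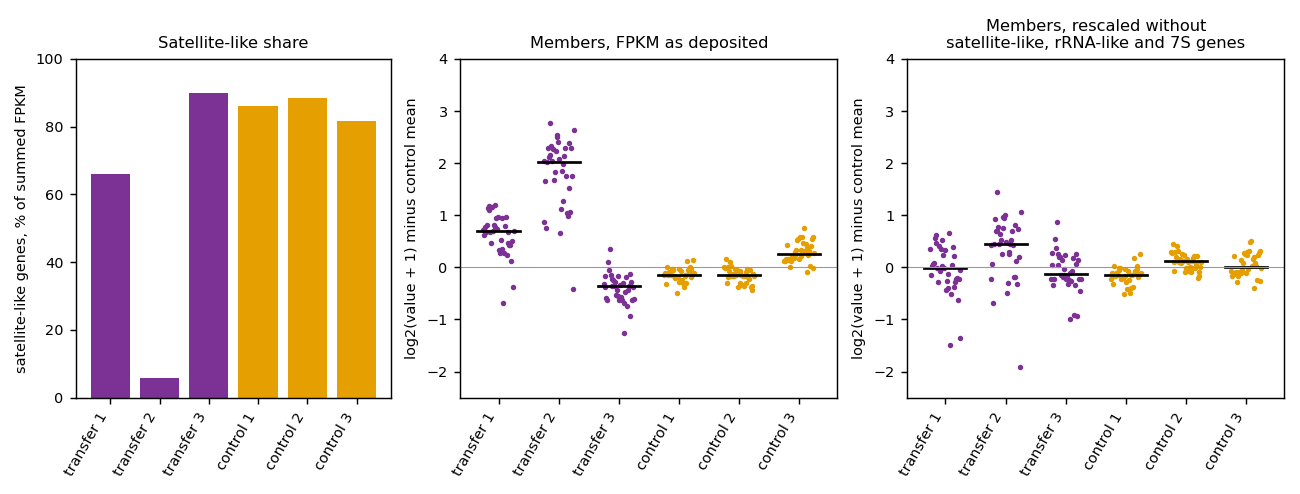
Share of satellite-like genes in the summed FPKM of each young bone library (left), and log2 of each member's value relative to the control mean as deposited (middle) and after the rescaling that leaves such genes out of the total (right), 36 points and their median line per library. Transfer replicate 2, with the lowest satellite-like share at 5.80%, has the highest members in the middle panel.

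Some members carry an uncertainty from their position in the genome, since strand use in counting is not given. In the GENCODE M21 annotation, other genes on the opposite strand overlap Atp6v0b, Atp6v1e1, Atp6v1h, Ctsa, Ctsb, Ctsl, Ctsz, Lamp1, Npc1, Hexa and Sqstm1, and genes on the same strand overlap Ctsd and Ctsl. Atp6v0c has a processed copy, Atp6v0c-ps1, with which reads could be shared.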

How the data were processed

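Poly(A) RNA of 27 samples was sequenced, and 4 tables of FPKM per gene, deposited by the authors, were used. HTSeq and mm10 appear in the submitters' processing notes with no stated role. A read aligner was not given in the sources used here, nor was strand use. Of 48 samples, 21 were not analysed here. Libraries were grouped by their titles, 3 per group. Contrasts were made within a table with limma 3.58.1 (R 4.3.3) on log2(FPKM + 1), a pseudocount of 1, with a trended variance prior, for genes with a mean of at least 1 FPKM over the fit, and p-values were adjusted over all tested genes. The 4 groups of the oligomycin A experiment shared 1 fit. The script was tested on simulated data with the means and spreads of these libraries. Of genes changed by 1 on the log2 scale, 91% to 96% were recovered in the MLO-Y4 comparisons. Of genes changed by 0.3, 29% to 34% were recovered in the oligomycin A experiment and 56% under ADP. In young bone 0% were recovered at either size. The difference of responses was not simulated. Named are all members that passed, the next by p up to 5, 10 members tracked in every comparison (Tfeb, Mcoln1, Sqstm1, Lamp1, Ctsb, Ctsd, Ctsl, Atp6v0c, Atp6v0d1, Atp6v1a), and up to 4 passing genes of each list by p. The members, lists and tests were chosen with earlier results of these data known, so nothing here is independent of them. Gene IDs matched GENCODE M21 in 55154 of 55335 rows. FPKM keep no exact depth: 38.7% to 43.3% of low MLO-Y4 values were whole reads within 0.1, where an even spread gives 20%, so no count test was run. Promoter sequences are from RefSeq. Alternatives were other pseudocounts, filters and scalings, a constant variance prior, the replicate block, the 2 groups alone and each library left out. Pairing of same-numbered libraries is not labelled and they did not clearly deviate together, so the main fit used no pairing.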

Additional observations from a re-analysis of the deposited data

Results flagged for a closer look

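Rnasek, a gene of the list of other pump subunits and not 1 of the 36, responded differently in treated and recipient cells: the interaction term was 1.65 on the log2 scale (limma adjusted p = 0.0033), with -1.33 in treated cells (all 3 libraries lower than vehicle) and 0.32 in recipients (limma adjusted p = 0.63, overlapping groups). It kept its call under all 22 alternatives run. The 2 vehicle baselines differed as well, at -0.82 for vehicle supernatant against vehicle (limma adjusted p = 0.0049), and both enter the interaction. With 3 libraries per group no test for single distant libraries was made.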

How the results depend on the processing

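The count of called members stayed at 0 under every alternative run for the recipient response, the difference of responses, ADP and young bone. For oligomycin A against vehicle it went from 0 to 2 under quantile normalization, 2 under the scaling that leaves out satellite-like and rRNA-like genes (added after the data were seen), 1 with the 2 groups alone, and 0 to 1 with single libraries left out. For the 2 control groups it went from 3 to 0 at one total, 0 with the 2 groups alone, 5 after that rescaling, and 1 to 4 with single libraries left out. The cause was not tested. At one total the all-gene median shifted to 0.13 for oligomycin A, 0.14 for the 2 control groups and -0.13 for the difference of responses. Of 78 results of named members that were not called, 39 changed sign in some alternative without a call and 6 were called in at least 1. For all genes, calls under oligomycin A were 636 in the main analysis, 386 without a filter, 238 at one total, 1168 by median-of-ratios scaling, 1226 by quantile normalization, 1087 after the rescaling, 412 with the 2 groups alone and 265 to 652 with single libraries left out. For the 2 control groups they were 1746, 534 at one total, 829 with the 2 groups alone and 1002 to 1359 with single libraries left out. Higher and lower calls under oligomycin A were 442 and 194, 218 and 20 at one total, 286 and 366 without vehicle replicate 2 (all-gene median -0.05, 39.3% above 0), and 704 and 522 by quantile normalization. For the control groups they were 1129 and 617, 400 and 134 at one total, 628 and 731 without vehicle replicate 2 (47.9% above 0), 1179 and 1027 by median-of-ratios scaling, and 1120 and 1088 by quantile normalization. For the recipient response 46 genes were called, 7 with the 2 groups alone, 16 at one total, 23 without a filter, 28 with the block, 77 by median-of-ratios, 81 after the added scaling, 85 by quantile normalization and 22 to 59 with libraries left out. For the difference of responses 53 were called, 25 at one total, 35 with the block, 100 by median-of-ratios, 102 by quantile normalization, 111 after the added scaling (33 higher and 78 lower, beside 10 and 43) and 35 to 70 with libraries left out. Under ADP 7 were called, 0 without a filter or with the block, 1 at a 5 FPKM filter and 0 to 40 with libraries left out, and in young bone 4, with 0 to 7 over the alternatives.

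Whether replicate numbers pair the samples is not labelled. Same-numbered deviations correlated from -0.14 to 0.06 in the oligomycin A experiment, -0.01 to 0.04 under ADP and -0.23 to -0.08 in young bone. Differently numbered ones in the oligomycin A experiment ranged from -0.22 to 0.22. With 3 libraries per group such correlations cannot settle whether the samples were paired. With the replicate number as a block, 0 members were called under oligomycin A and 2 between the control groups, and 0 in the other comparisons. Depth limits the lowest genes: Ctsf and Ctss in MLO-Y4 cells rest on few reads. Tfeb was low there too but passed the filter of 1 FPKM.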
